A study of Mus musculus with 2 samples.

Results

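A set of 10 early lymphoid and immunoglobulin genes was examined in granulocyte-monocyte progenitors (GMPs), the marrow precursors of neutrophils and monocytes. These 10, of 43346 annotated genes in the deposited tables, are Ighm, Igkc, Cd79a, Cd79b, Igll1, Vpreb1, Dntt, Rag1, Rag2 and Il7r. They were found by matching gene identifiers to these symbols, and the symbols were selected on values already measured in these same libraries, so their levels are a description and carry no test. The question was which early lymphoid transcripts are present in cells where the factors that commit progenitors to the B cell fate are not detected.

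The series holds 1 group of 2 libraries, both labelled as primary GMPs from adult male C57BL/6J mice aged 5 to 6 weeks, with no treatment and no engineered allele named. Total RNA was depleted of ribosomal RNA and 100 ng was taken into a ScriptSeq low-input preparation. The labels number the libraries as biological replicates 1 and 2 and tie both to the same donor record, so the spread between them may be partly technical. The recorded size range also differed, from 200 to 712 in replicate 1 and 200 to 1000 in replicate 2 without a unit, and cannot be told apart from the replicate in any difference between the libraries. Replicate 1 held 49473848 and replicate 2 held 44260902 expected counts (reads assigned to genes by an estimator), and a count of 0 is compatible with up to 3 counts, or 0.0606 and 0.0678 CPM (counts relative to the library's total). All 8 markers fixed for GMPs were above 20 TPM in both libraries, led by Mpo, which encodes myeloperoxidase, at 2552 and 2288 TPM. TPM is a share of transcripts, that is, a level per unit of length, scaled here over every annotated RNA including small noncoding RNAs.

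A B cell is built in steps. The RAG1 and RAG2 proteins cut immunoglobulin gene segments and terminal transferase, encoded by Dntt, adds bases at the joins. A finished heavy chain, whose constant part comes from Ighm, first pairs with a surrogate light chain made from Igll1 and Vpreb1, and later with a true light chain such as kappa, whose constant part comes from Igkc. Both receptors signal through the CD79A and CD79B proteins, and the interleukin 7 receptor, whose alpha chain comes from Il7r, sustains the precursors. EBF1 and PAX5 are the transcription factors that set and keep the B cell program.

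Of the 10 genes, 3 (Ighm, Cd79b and Igkc) were at or above 1 TPM in both libraries. The same level was reached by 22.0% of all annotated genes and by 40.9% of protein-coding genes. Igll1, Dntt and Rag2 had counts in both libraries but lay below 1 TPM, Vpreb1 and Il7r had counts in 1 library each, and Cd79a and Rag1 had 0 counts in both. Among all annotated genes 61.6% had 0 counts in both libraries, and among protein-coding genes 40.2% did. The median of the mean TPM was 0.213 over the 10 genes and 0 over all annotated genes. Nothing particular to the 10 genes is read from these shares.

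**Figure D1:**
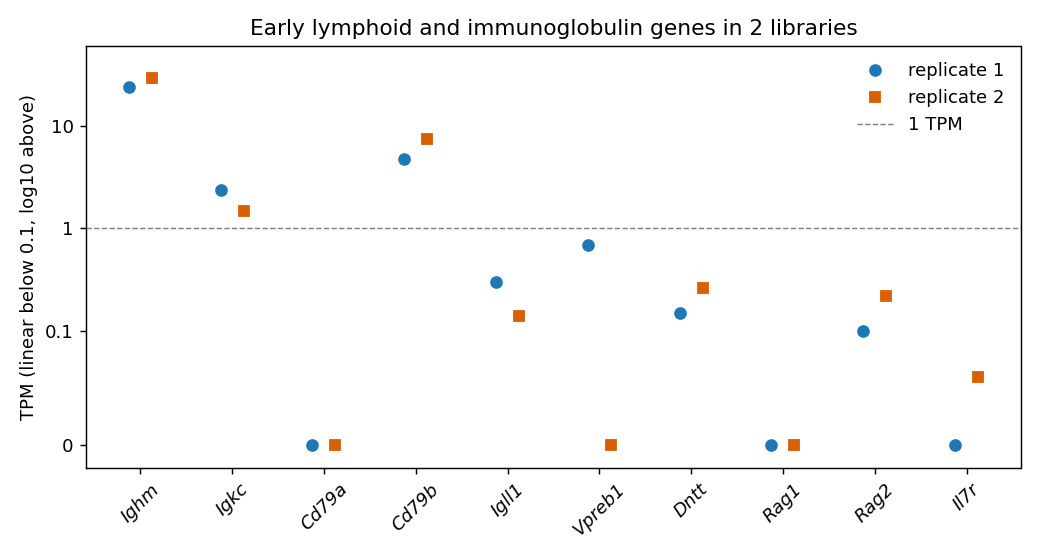
TPM of each of the 10 genes (vertical axis, linear below 0.1 and logarithmic above) in replicate 1 (circles) and replicate 2 (squares). Ighm, Cd79b and Igkc lie above the dashed line at 1 TPM in both libraries, and Cd79a and Rag1 lie at 0 in both.

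The transcripts of Ighm and Cd79b are shown first because they hold most of the reads of the 10 genes. The 2 Ighm transcripts are identical over their first 1305 bases and then part. The secreted form (ENSMUST00000103426), with 4 exons, reads on into the end of the secreted heavy chain, and the membrane form (ENSMUST00000177715), with 6 exons, is spliced to the exons of the membrane anchor. The last 30 shared bases are in lower case below and the coding bases that follow, stop codon included, are in capitals. They come from GENCODE M21 on mm10, minus strand, from chr12:113420867-113420958 for the secreted form and from exons joined within chr12:113418826-113420958 for the membrane form.
Ighm secreted form: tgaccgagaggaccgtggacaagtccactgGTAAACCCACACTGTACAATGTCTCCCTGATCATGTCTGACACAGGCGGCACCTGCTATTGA
Ighm membrane form: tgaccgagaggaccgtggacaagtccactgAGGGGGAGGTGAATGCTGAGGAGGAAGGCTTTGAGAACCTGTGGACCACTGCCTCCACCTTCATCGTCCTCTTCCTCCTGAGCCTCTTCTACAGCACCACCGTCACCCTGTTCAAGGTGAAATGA
The secreted end holds 62 coding bases after the parting point and opens with GT, the letters with which most introns begin. The membrane end holds 125 coding bases. Only 188 bases of the secreted form, or 12.6% of its length, and 393 bases of the membrane form, or 23.1%, are its own, so the split between them rests on reads from those stretches.

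The 2 Cd79b transcripts differ at their start. The long form (ENSMUST00000044228) begins 233 bases further upstream and has its start codon 180 bases, or 60 codons, before that of the short form (ENSMUST00000167143). The opening 60 coding bases of each are printed below with the start codon in capitals, from chr11:106314605-106314664 for the long form and chr11:106314425-106314484 for the short form, minus strand of mm10.
Cd79b long form: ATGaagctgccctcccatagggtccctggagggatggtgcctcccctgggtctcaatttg
Cd79b short form: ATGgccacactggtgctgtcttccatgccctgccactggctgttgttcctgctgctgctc
The short form has 0 bases of its own and the long form has 236, so a read can mark the long form but none can mark the short form alone. The RefSeq 5′ end of the gene, at position 106314562, lies between the 2 starts.

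Ighm, the constant part of the immunoglobulin mu heavy chain, was the highest of the 10 genes. Its gene (ENSMUSG00000076617) lies on the minus strand of chromosome 12 at 113418558 to 113422730. It held 5078 counts in replicate 1 and 4554 in replicate 2, or 23.93 and 29.11 TPM, with a mean of 26.5 TPM ± 3.66 (SD, n = 2). It ranked 1594 of 43346 by mean TPM, above 96.3% of annotated genes. The libraries differed in TPM and hardly in CPM, at 102.6 in replicate 1 and 102.9 in replicate 2. When TPM was rescaled so that nuclear protein-coding and immunoglobulin genes made up the whole, Ighm was at 125 and 127. Those genes held 19.1% of the deposited TPM in replicate 1 and 22.8% in replicate 2.

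Both ends of the Ighm transcript were assigned reads, and the membrane form led in each library. It was at 18.24 TPM in replicate 1 and 17.06 in replicate 2. The secreted form was at 5.70 and 12.05 TPM. Their expected counts were 3997.74 and 2830 for the membrane form and 1080.26 and 1724 for the secreted form. The membrane form thus made up 76.2% and 58.6% of the gene's TPM, a mean of 67.4% ± 12.5 (SD, n = 2). Its deposited credibility intervals overlapped, at 17.1 to 18.8 TPM and 15.4 to 18.2 TPM. Those of the secreted form did not, at 4.83 to 6.51 and 10.4 to 13.5 TPM. These intervals describe the assignment of reads within a library and leave out variation between samples.

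**Figure D2:**
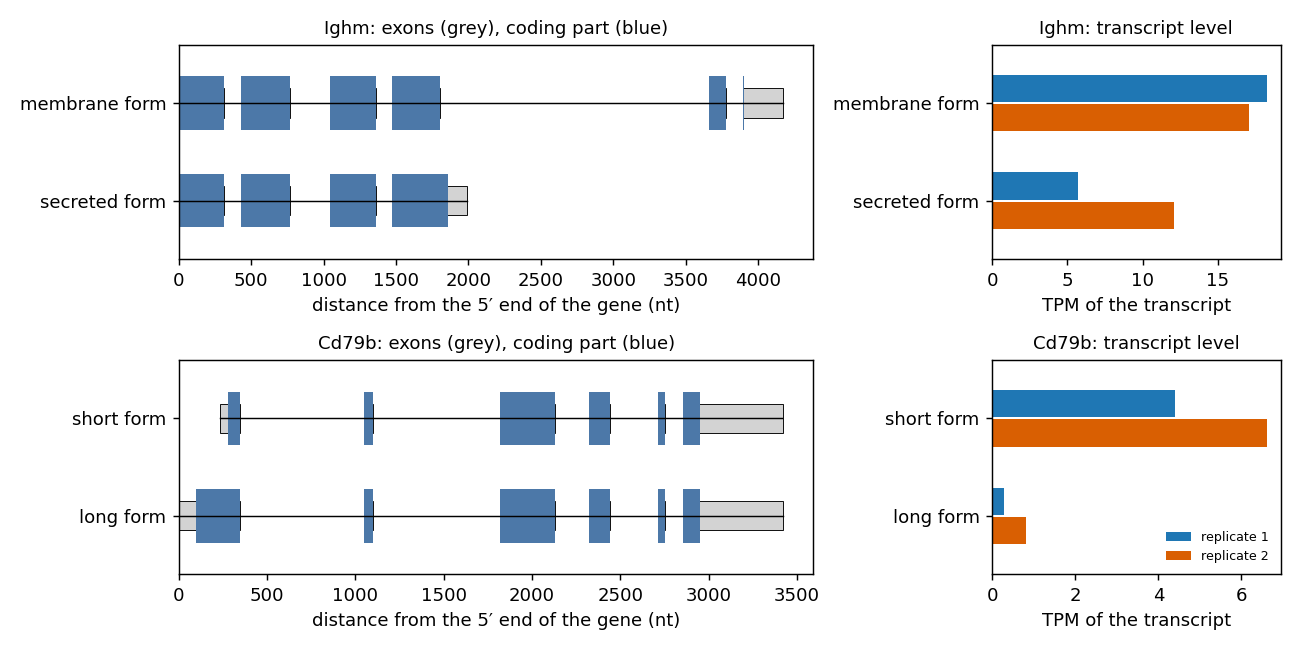
Left, the exons (grey) and coding parts (blue) of the transcripts of Ighm and Cd79b by distance from the gene's 5′ end in nucleotides. Right, the TPM of each transcript in replicate 1 (blue bars) and replicate 2 (orange bars), with the membrane form of Ighm and the short form of Cd79b the higher in both libraries.

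Variable segments were nearly without reads. The 213 annotated immunoglobulin V genes together held 20 counts in replicate 1 and 35 in replicate 2, against 5078 and 4554 for Ighm. In replicate 1 these were 18 counts on Igkv3-7 and 1 each on Ighv1-53 and Ighv1-69. In replicate 2 they were 17 on Ighv10-1, 16 on Igkv6-23 and 2 on Igkv3-2. These segments are named after their values were seen, and 0 segments had counts in both libraries. Over all annotated genes whose larger count was 10 to 100, 32.5% had 0 in the other library. Nothing particular to V segments is read from the lack of overlap. The 19 D genes (10 to 29 bases) and the 9 J genes (36 to 54 bases) have an effective length of 0 in the tables, so they could not receive counts and their 0 says nothing about their use. How many Ighm reads belong to rearranged genes was not tested.

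The other heavy chain constant genes were at trace or 0. Ighd, which encodes the delta chain and lies 2234 bases from Ighm, had 5 and 2 counts. Igha, which encodes the alpha chain, had 8 and 28 counts. Ighg2b had 4 and 0 counts, and Ighg1, Ighg2c, Ighg3 and Ighe had 0 in both libraries, as did the lambda light chain gene Iglc2. Of 10 matched constant genes, 2 were at or above 1 TPM in both libraries, namely Ighm and Igkc, beside 22.0% of all annotated genes. The symbols Iglc1, Iglc3 and Iglc4 were not matched.

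Igkc, the constant part of the kappa light chain (ENSMUSG00000076609, plus strand of chromosome 6, 70726435 to 70726966), rested on few reads. It had 50 counts in replicate 1 and 19 in replicate 2, or 2.36 and 1.48 TPM, with a mean of 1.92 TPM ± 0.622 (SD, n = 2). In the deposited tables it is only 323 bases long, with an effective length of 147 bases in replicate 1 and 115 in replicate 2. This short length lifts its TPM relative to its counts. The coordinates above are those of GENCODE M21 and span 532 bases, so reads were counted on a shorter model. The deposited interval in replicate 2, 0.878 to 2.21 TPM, includes the 1 TPM threshold. In CPM, Igkc was at 1.01 in replicate 1 (exact 95% Poisson interval 0.750 to 1.33) and 0.429 in replicate 2 (0.258 to 0.670). Its libraries did not overlap by these intervals, which cover counting error only. Igkc lies within the long noncoding RNA gene Gm30211 on the same strand, with 0 exon bases in common.

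The partner genes of the receptor were unlike each other. Cd79b (ENSMUSG00000040592, minus strand of chromosome 11, 106311341 to 106314762) held 698 and 837 counts, or 4.69 and 7.43 TPM, with a mean of 6.06 TPM ± 1.94 (SD, n = 2). It stood above 87.6% of annotated genes. Cd79a (ENSMUSG00000003379, plus strand of chromosome 7, 24897381 to 24902197), whose protein forms a heterodimer with the product of Cd79b, had 0 counts in both libraries. With 3 counts as the limit, its level could be at most 0.0163 and 0.0216 TPM. The nearest neighbours of Cd79a were read in both libraries, with Rps19, a ribosomal protein gene, at 328 and 333 TPM and Arhgef1, 715 bases away, at 9.85 and 8.45 TPM. The neighbours of Cd79b, Gh and Scn4a, had 0 counts in both.

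Nearly all Cd79b reads were assigned to the short form. It was at 4.41 TPM in replicate 1 and 6.61 in replicate 2, and the long form at 0.28 and 0.82 TPM. The short form made up 94.0% and 88.9% of the gene's TPM, a mean of 91.5% ± 3.59 (SD, n = 2). The long form held 50.73 and 111.83 expected counts. Its deposited intervals did not overlap between libraries, at 0.153 to 0.464 and 0.531 to 1.15 TPM. On log2(TPM + 1), Ighm exceeded Cd79b by 2.13 in replicate 1 and 1.84 in replicate 2, a mean difference of 1.98 ± 0.21 (SD, n = 2). The direction was the same in both libraries and the difference was larger than its spread.

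The genes of the surrogate light chain were at trace level on the deposited TPM. Rescaled as for Ighm, Igll1 was at 1.57 and 0.613 and Vpreb1 at 3.62 and 0. Igll1, which encodes the lambda 5 protein (ENSMUSG00000075370, minus strand of chromosome 16, 16860671 to 16863985), had 23 counts in replicate 1 and 10 in replicate 2, or 0.30 and 0.14 TPM. All 23 were assigned to a transcript of 702 bases that has no entry in GENCODE M21, and all 10 to another of 870 bases that has one. Vpreb1, which encodes the other chain of the surrogate pair (ENSMUSG00000059305, minus strand of chromosome 16, 16868403 to 16870843), had 55 counts in replicate 1 and 0 in replicate 2, or 0.69 and 0 TPM. In CPM its value in replicate 1 was 16.4-fold that of 3 counts in replicate 2, a floor for counting error only. Counting error in replicate 1 is left out of that ratio. The deposited upper bound in replicate 2 was wider, at 0.0984 TPM. All 55 were assigned to a transcript of 730 bases without an entry in GENCODE M21, and the transcript of 766 bases that does have an entry was at 0 in both libraries. Vpreb1 shares 108 exon bases with the start of Top3b, a topoisomerase gene on the opposite strand read at 30.8 and 30.3 TPM. No source used here says whether counting used strand, so reads of that stretch cannot be told apart by strand. The expected counts of both genes were whole numbers, with Top3b at 7245 and 5727. Whether reads of the stretch enter the Vpreb1 counts was not tested. The related genes Vpreb2 and Vpreb3 had 0 counts in both libraries.

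Of the recombination enzymes, Rag2 and Dntt had counts and Rag1 had 0. Dntt (ENSMUSG00000025014, plus strand of chromosome 19, 41029275 to 41059525) had 42 and 56 counts, or 0.15 and 0.26 TPM. In replicate 1 all 42 were assigned to a transcript of 2068 bases and in replicate 2 all 56 to one of 2128 bases. Rag2 (ENSMUSG00000032864, plus strand of chromosome 2, 101624718 to 101632529) had 24 and 71 counts, or 0.10 and 0.22 TPM. Its 24 counts of replicate 1 were assigned to a transcript of 1857 bases, while replicate 2 had 7.52 on it and 63.48 on one of 3424 bases. Which form of these genes was present cannot be read from so few counts that changed form between libraries. Rag1 (ENSMUSG00000061311, minus strand of chromosome 2, 101638282 to 101649501) had 0 counts in both, a limit of 0.00324 and 0.00420 TPM.

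Rag1 and Rag2 both lie inside B230118H07Rik, a protein-coding gene with 2826 and 2748 counts, or 24.9 and 29.5 TPM. Rag2, on the opposite strand, has 208 exon bases in common with it, and Rag1, on the same strand, has 80. The gene-level expected counts of Rag2 and B230118H07Rik were whole numbers in both libraries. The part of those shared bases in the Rag2 counts was not tested. Lower by length than Igkc, Rag2 had more counts than Igkc in replicate 2, at 71 against 19, and fewer in replicate 1, at 24 against 50.

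Il7r, the alpha chain of the interleukin 7 receptor (ENSMUSG00000003882, minus strand of chromosome 15, 9505788 to 9530176), had 0 counts in replicate 1 and 20 in replicate 2, or 0 and 0.06 TPM. The limit of 3 counts in replicate 1 is 0.00687 TPM. In CPM, Il7r in replicate 2 was 7.45-fold that limit, with counting error in replicate 2 left out. Vpreb1 and Il7r were thus high in opposite libraries.

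**Figure D3:**
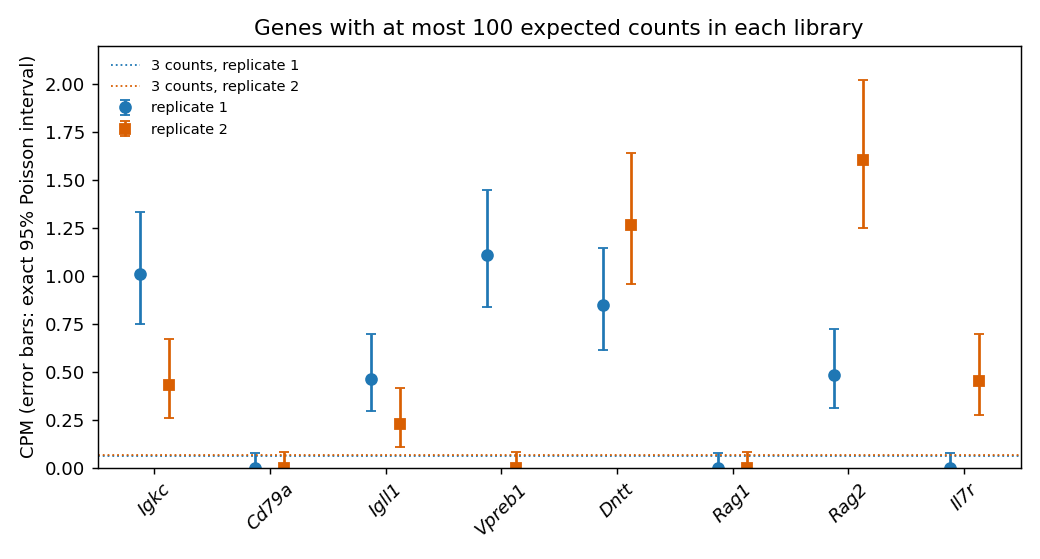
CPM of the 8 genes with at most 100 expected counts in each library, in replicate 1 (circles) and replicate 2 (squares), with exact 95% Poisson intervals that cover counting error only. Dotted lines mark 3 counts in each library; Vpreb1 and Il7r each lie at 0 in 1 library and clear of the line in the other.

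Such discordance was common among genes of this depth. Of the 10 genes, 6 had a larger count between 10 and 100, and 2 of these 6 had 0 counts in the other library. Over all annotated genes with a larger count in that range, 1133 of 3486, or 32.5%, had 0 in the other library. The count for Vpreb1 and Il7r is therefore near the background.

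Between-library ratios could be formed for 6 of the 10 genes. Cd79a, Rag1, Vpreb1 and Il7r did not pass edgeR's filter on low counts. On TMM-scaled log2 CPM, replicate 2 minus replicate 1 was −0.04 for Ighm and 0.38 for Cd79b. It was −1.20 for Igkc, −0.96 for Igll1, 0.51 for Dntt and 1.60 for Rag2. A ratio beyond 1 in size was seen for Igkc and Rag2, and in 9.48% of the 12855 genes that passed the filter. Among genes of similar mean CPM the share beyond 1 was 41.3% for Igkc and 42.2% for Rag2. For Ighm the median size of the ratio among 3094 genes of similar level was 0.149, and for Cd79b it was 0.271 among 3547 genes. The ratio of Cd79b was larger than that median and the ratio of Ighm smaller. These are ratios of 1 library to 1 library, with no test.

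Ordered by mean TPM, the genes ran Ighm, Cd79b, Igkc, Vpreb1, Igll1, Dntt, Rag2 and Il7r, with Cd79a and Rag1 at 0. Successive genes from Ighm down to Vpreb1 did not overlap between libraries. Vpreb1, Igll1, Dntt and Rag2 overlapped in their ranges, and Il7r overlapped both Vpreb1 and the genes at 0, so the order from Vpreb1 down is not resolved. The genes most like each in level, taken as the protein-coding genes next above and below by mean TPM, were Spcs2 and Magt1 for Ighm, Kin and Pigyl for Cd79b, and Tmem39b and Pan2 for Igkc. Spcs2 was at 23.77 and 29.27 TPM, Kin at 4.54 and 7.59 TPM and Tmem39b at 2.39 and 1.45 TPM. With 2 libraries of 1 cell type there is no pattern beyond level to match.

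The B cell factors ranged from 0 to above 10 TPM. Of 14 factors, 5 reached 1 TPM in both libraries, while 6 were at 0 counts and 3 lay between. Among protein-coding genes 40.9% reached 1 TPM and 40.2% were at 0, so neither count sets the list apart. The 6 at 0 were Ebf1, Pax5, Spib, Ikzf3, Lef1 and Pou2af1. Those detected were Ikzf1 (Ikaros) at 10.04 and 13.18 TPM, Tcf12 at 7.56 and 12.39 TPM, Tcf3 (E2A) at 9.56 and 7.28 TPM, Mef2c at 6.47 and 8.02 TPM and Bcl11a at 3.15 and 2.36 TPM. Pou2f2 (Oct-2) straddled the threshold at 0.98 and 1.19 TPM, Foxo1 was at 0.09 TPM in both libraries and Irf4 at 0.07 and 0.06. On TPM rescaled as for Ighm, Pou2f2 was at 5.14 and 5.21, Foxo1 at 0.472 and 0.394 and Irf4 at 0.367 and 0.263. The median of the list was 0.08 TPM in replicate 1 and 0.075 in replicate 2, beside 0 over all annotated genes and 0.17 and 0.20 over protein-coding genes.

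**Figure D4:**
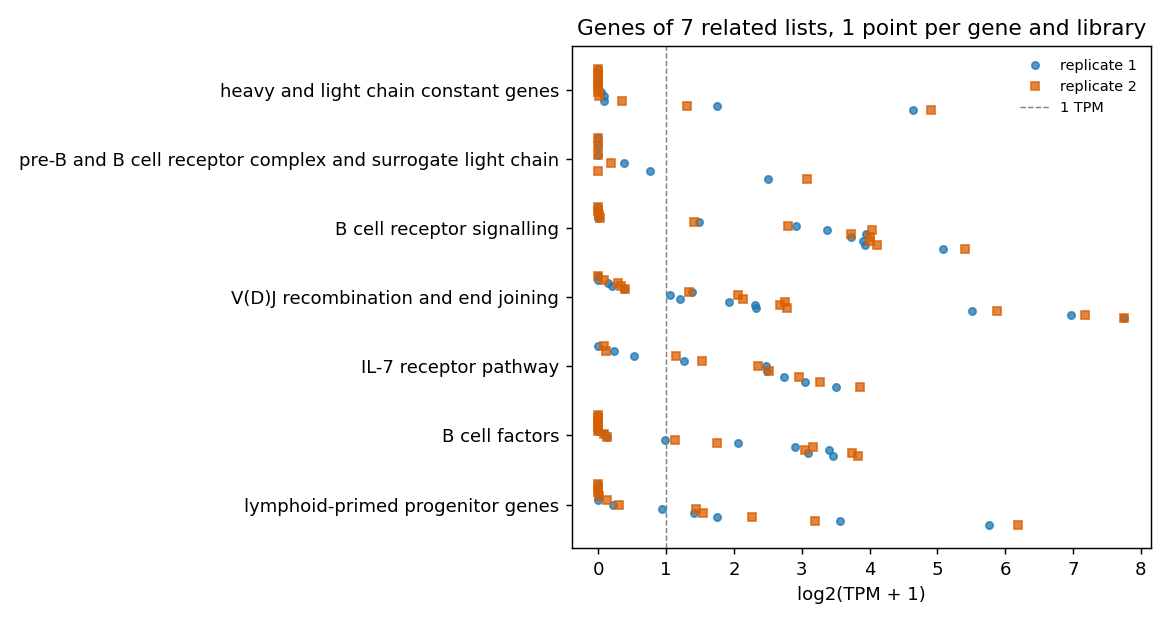
log2(TPM + 1) of each gene in 7 related lists (rows), in replicate 1 (circles) and replicate 2 (squares), with the dashed line at 1 TPM. Each list is spread from 0 to well above the line, and among the B cell factors 5 of 14 genes lie above it in both libraries.

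Of 12 signalling genes downstream of the receptor, 8 were at or above 1 TPM in both libraries, beside 40.9% of protein-coding genes, with medians of 7.94 and 9.13 TPM. Ptprc (CD45) led at 32.7 and 41.5 TPM, and the kinases Syk, Btk and Lyn were at 13.94 and 15.08, 12.25 and 15.13, and 9.36 and 15.45 TPM. These kinases also serve Fc and integrin receptors of myeloid cells. Cd72, which encodes a B cell co-receptor, was at 1.79 and 1.66 TPM. Blk, a kinase gene, and Cd22, an inhibitory co-receptor gene, had 0 counts in both libraries and the adaptor gene Blnk 0 and 1 count.

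Among genes of V(D)J recombination and end joining, 9 of 14 were at or above 1 TPM in both libraries, beside 40.9% of protein-coding genes. The medians of the list were 1.46 and 3.28 TPM. The general repair genes were read, with Xrcc6 (Ku70) at 44.5 and 58.1 TPM, Prkdc at 3.96 and 5.41 TPM and Dclre1c (Artemis) at 2.81 and 5.74 TPM. The DNA-bending proteins Hmgb1 and Hmgb2 were highest, at 214.92 and 213.63 TPM and at 124.81 and 143.16 TPM. The lymphoid enzymes Rag1, Rag2 and Dntt lay below 1 TPM, as did Lig4 at 0.30 and 0.32 TPM and Polm at 1 and 18 counts. With TPM rescaled as for Ighm, Lig4 was at 1.57 and 1.40, Dntt at 0.787 and 1.14 and Rag2 at 0.524 and 0.963.

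In the interleukin 7 receptor pathway, Il7r itself was at 0 and 0.06 TPM. Of 9 genes, 6 were at or above 1 TPM in both libraries, beside 40.9% of protein-coding genes, with medians of 4.56 and 4.10 TPM. The common gamma chain gene Il2rg was at 4.60 and 4.74 TPM, the kinase genes Jak1 and Jak3 at 10.31 and 13.57 and at 1.41 and 1.90 TPM, and Crlf2, a chain that pairs with the product of Il7r in the TSLP receptor, at 4.56 and 4.10 TPM.

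Of 11 genes of lymphoid-primed progenitors, 4 were at or above 1 TPM in both libraries. Among protein-coding genes 40.9% were, so the count does not set the list apart. Among the 4 genes, Cd27 was at 10.87 and 8.18 TPM, Satb1 at 2.38 and 3.82 TPM and Notch1 at 1.67 and 1.91 TPM. Flt3, a cytokine receptor of early progenitors, was at 0.92 and 1.72 TPM, or 4.82 and 7.53 when rescaled as for Ighm. Ly6d, Gfra2 and Mn1 had 0 counts in both libraries, Ccr9 had 0 and 3 and Ccr7 0 and 17 counts. The medians were 0.16 and 0.24 TPM.

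Marker lists of other cells differed in level. For the counts that follow, 61.6% of all annotated genes and 40.2% of protein-coding genes had 0 counts in both libraries. At or above 1 TPM in both were 22.0% and 40.9%. Of 12 matched mature B cell markers, 9 had 0 counts in both libraries, Ms4a1 (CD20), Cd22 and Pax5 among them. The 9 include Cd79a, Ebf1, Pax5, Blk and Cd22, whose 0 counts were given above, so they are not a separate readout. The mature B cell list summed to 11.6 and 16.3 TPM, of which Cd37, a leukocyte tetraspanin, gave 11.62 and 16.25. Which cells were present is not read from these counts. Of 7 plasma cell markers, 0 reached 1 TPM in both libraries, and they summed to 0.94 and 0.61 TPM, with Jchain at 52 and 14 counts and Mzb1 and Tnfrsf17 at 0. Of 12 T and NK cell markers, 7 had 0 counts in both, Cd3e, Cd3g and Trac among them, and the list summed to 1.15 and 0.76 TPM. Of these sums Lck gave 0.94 and 0.57 TPM, and Tcf7 gave 0.16 and 0.07. Of 10 markers of plasmacytoid dendritic cells, 3 were at or above 1 TPM in both libraries, namely Bst2, Tcf4 and Runx2, and the list summed to 15.9 and 22.0 TPM, while Siglech, Spib and Klra17 had 0 counts. Igkc and Jchain had more counts in replicate 1, with 50 against 19 and 52 against 14. The plasma cell markers Sdc1, Irf4 and Prdm1 also had more in replicate 1, with 71 against 39, 49 against 29 and 31 against 0. The plasma cell marker Derl3 and the constant gene Igha had more in replicate 2, with 34 against 2 and 28 against 8. The part of any other cell in the Igkc reads was not tested. In bulk RNA, a few cells with much of a transcript and many cells with little of it cannot be told apart.

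RefSeq promoter windows, from 250 bases before to 50 bases after each gene's start on GRCm38.p6, were at hand for 7 of the 10 genes. The windows of Cd79a, at 0, and Igll1, at trace, are shown because both genes belong to the early B cell program that EBF1 and the E proteins TCF3 and TCF12 control. Capitals mark exact matches to CCCNNGGG, a string used here for EBF1, and to CANNTG, the E-box. A site that departs from these letters stays in lower case. The coordinates are chr7:24897247-24897546, plus strand, and chr16:16863936-16864235, minus strand.
Cd79a promoter: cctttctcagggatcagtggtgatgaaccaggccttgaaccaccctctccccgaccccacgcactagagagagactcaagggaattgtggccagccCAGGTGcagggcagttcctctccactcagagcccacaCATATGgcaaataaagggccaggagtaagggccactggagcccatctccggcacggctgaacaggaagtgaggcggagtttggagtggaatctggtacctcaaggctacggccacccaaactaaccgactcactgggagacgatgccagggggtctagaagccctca
Igll1 promoter: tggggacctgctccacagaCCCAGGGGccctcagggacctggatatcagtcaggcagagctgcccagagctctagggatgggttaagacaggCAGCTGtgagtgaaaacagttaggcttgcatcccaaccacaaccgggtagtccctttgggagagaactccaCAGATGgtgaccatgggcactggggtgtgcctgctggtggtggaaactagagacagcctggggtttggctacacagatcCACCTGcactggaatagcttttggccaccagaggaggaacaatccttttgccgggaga
On both strands, CCCNNGGG was found in 1 of the 7 windows, that of Igll1, and in 13.7% of 32851 windows of that length. CANNTG was found in 7 of 7 and in 72.3% of all windows. The E-box variant CAGGTG, contained in CANNTG, was in 4 of 7 windows and in 20.2% of all. A further 6 strings were searched. CCCNNGGGA was in 0 of 7 windows and 6.56% of all, TATAAA in 0 and 13.6%, and ATTTGCAT in 0 and 1.74%. GGGAA was in 6 of 7 windows and 62.7% of all. Of 2 longer strings that hold it, TGGGAA was in 1 of 7 windows, that of Rag1, and in 25.6% of all. AAGGGAA was in 1 of 7 windows, that of Cd79a, and in 7.42% of all. A match is a run of letters and says nothing of binding, and the lack of an exact match says nothing of its absence.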

How the data were processed

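Total RNA was measured in 2 GMP libraries. The deposited tables hold expected counts per gene and transcript, TPM and FPKM, posterior means, credibility bounds, and each transcript's percent of its gene. Per the deposited file headers and metadata they use mm10 and GENCODE M4; aligner, quantifier and strand setting: not given in the sources used here. TPM is scaled over all RNAs, so a shift in small noncoding RNAs moves every other gene.

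Symbols, coordinates and transcripts came from GENCODE M21 (same assembly), matched on identifiers stripped of their version: 42462 of 43346 genes and 14 of 18 transcripts of the 10 genes matched. Expected counts were rounded and scaled by TMM in edgeR 4.0.16 (R 4.3.3), with log2 CPM at a prior count of 2. The step was tested on simulated data. Intervals are exact 95% Poisson. DESeq2 1.42.0 size factors, other thresholds, FPKM, posterior means, rescaled TPM and each library alone were alternatives. With 1 group no test was made.

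Named genes are the 10 genes, all genes of 7 related and 5 marker lists, overlapping or nearest genes, and genes of the nearest level. Of the listed symbols, Iglc1, Iglc3, Iglc4, Faim3 and Igj were not matched; Fcmr and Jchain, the present symbols of Faim3 and Igj, were. A few list members enter the counts and are not reported here. The 10 genes and the lists were chosen with earlier results of these data known. The 9 promoter strings were counted first in an exploratory look, and the 2 marked in capitals were chosen after their counts were seen.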

Additional observations from a re-analysis of the deposited data

Results flagged for a closer look

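T cell receptor V segments, which enter no comparison above, held 56 counts in replicate 1 and 45 in replicate 2, summed over 132 segments. The limit of 3 counts holds for 1 gene at 0 and is no floor for such a sum. The V segments drew attention as signal outside the genes described. In replicate 1 the counts lay on Trav13n-4 (20), Trav16 (18) and Trav13-4-dv7 (18), and in replicate 2 on Trav16n (31), Trbv13-2 (8) and Tcrg-V5 (6), so 0 of the 132 segments had counts in both libraries. Over all annotated genes whose larger count was 10 to 100, 32.5% had 0 in the other library, and no trait of these segments is read. These segments were named after their values were seen. The constant genes Trac, Trbc1 and Trbc2 had 0 counts in both libraries.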

How the results depend on the processing

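Of 94 recomputed values, 85 kept their direction and stayed within the replicate spread, within 1.5 times the reported count or, for ratios, within 0.1, 8 moved beyond it and 1 changed sign. Some of the 85 were fixed in advance. For the Ighm and Cd79b difference and the transcript shares, a library alone always lies within the SD of the 2 libraries. At 5 TPM in place of 1, the genes at or above the threshold in both libraries were 1 of the 10 (Ighm), 1 constant gene, 0 genes of the receptor complex and surrogate light chain, 3 recombination genes, 3 of the interleukin 7 receptor pathway and 2 of lymphoid-primed progenitors. The share of all genes at 5 TPM was not computed. At 1 on rescaled TPM, recombination genes numbered 10, the interleukin 7 receptor pathway 7, B cell factors 6 and lymphoid-primed progenitor genes 5. The 10 genes stayed at 3. On CPM, which is not per length, the difference between Ighm and Cd79b was 2.58 on the log2 scale. The posterior mean put Cd79a at 0.01 TPM in place of 0. With library totals alone the ratio for Ighm was 0.0032 in place of −0.04. With a prior count of 0.5 the ratio for Igll1 was −1.05. In each library alone, 3 of the 10 genes were at or above 1 TPM and 3 were at 0 counts, and the membrane share of Ighm ranged from 58.6% to 76.2%. No paired analysis was possible because there is 1 group. Depth limits the 4 genes with 10 to 71 counts in both libraries and the 2 seen in 1 library; their transcript forms, and levels below 3 counts, were not resolved.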
